A study of Mus musculus with 16 samples.

Results

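The 9 genes Eln, Fbn1, Fbn2, Fbln1, Fbln5, Efemp2, Mfap4, Mfap5 and Emilin1 encode elastin, the fibrillins that build its microfibril scaffold, and the glycoproteins that join the parts. They were chosen by name as genes of the elastic fibre, and all 9 were found among the 49315 genes of the deposited table. Bulk RNA sequencing had measured them in 16 mice, with 1 library of intervertebral disc per mouse, each holding the 4 tail discs Co3/4, Co4/5, Co5/6 and Co6/7 of 1 mouse. Wild-type mice gave 3 libraries from intact and 4 from injured discs, and mice carrying the Adam8EQ mutation gave 4 from intact and 5 from injured discs. The series title gives DBA as the strain set against the Adam8 mutant. Age, sex, the way and time of injury, the nature of the EQ change and the background strain of the mutants are not given in the sources used here. Libraries are named below by genotype, disc state and the mouse number of the titles.

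Elastic fibres let tissues recoil after stretch. Tropoelastin, the soluble product of Eln, is deposited on a bundle of fibrillin microfibrils and is then cross-linked by lysyl oxidases. Fibulins and microfibril-associated glycoproteins guide that assembly, and fibrillin microfibrils also bind latent TGF-beta complexes and so hold growth factor in the matrix. In the disc, elastic fibres lie within and between the lamellae of the annulus fibrosus, the layered collagen ring around the nucleus pulposus.

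Each value is a TPM, a transcript level scaled for gene length and for library total, so levels can be set side by side between genes. The TPM steps of low values implied 10195080 to 24832148 reads per library, with a median of 13297520.5, and between 20085 and 21919 genes reached 1 TPM. Transcripts of disc and cartilage matrix cells (Acan, Col2a1, Comp and 4 others) summed to 3964 to 18568 TPM, so the labelled tissue was seen in every library. The summed macrophage markers were 121 to 168 TPM in intact discs, 198 to 3236 TPM in injured wild-type discs and 629 to 6836 TPM in injured mutant discs. Nothing in these bulk values tells fewer cells of a type from less RNA per cell. Adam8 itself was at 0.956 to 2.97 TPM in the intact libraries and at 3.52 to 264 TPM in the injured ones. As the nature of the mutation is not given, the Adam8 level does not check the genotype labels.

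Upstream windows of the genes called for a change show what sequence lies before their starts. RefSeq windows on GRCm38.p6 were matched by symbol for 5 of the 9 genes, Fbn1, Fbln1, Fbln5, Efemp2 and Emilin1. For 3 of them a window of 250 bases before the start held no annotated exon, and these are printed 5′ to 3′ on the gene's strand. Fbln1 and Fbln5 had 2 windows each and Efemp2 3, and those with exon bases are not printed. Capitals mark CACGTG, the E-box, in the printed Fbln1 window, and GGGCGG, the GC box, or its reverse complement CCGCCC in the other printed windows. Of the windows not printed, that of Fbln1 overlapped the printed one and held the same E-box and 1 GC box. Those of Efemp2 overlapped each other and held the same 5 GC boxes, outside the printed window. The window of Fbn1 held 1 GC box, and those of Fbln5 and Emilin1 held neither motif.
Fbln1, chr15:85205699-85205948, plus strand: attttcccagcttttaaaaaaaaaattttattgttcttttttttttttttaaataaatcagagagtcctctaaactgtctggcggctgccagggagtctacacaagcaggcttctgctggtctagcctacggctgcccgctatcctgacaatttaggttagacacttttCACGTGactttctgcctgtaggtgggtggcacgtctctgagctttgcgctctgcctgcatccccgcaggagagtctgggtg
Fbln5, chr12:101819120-101819369, minus strand: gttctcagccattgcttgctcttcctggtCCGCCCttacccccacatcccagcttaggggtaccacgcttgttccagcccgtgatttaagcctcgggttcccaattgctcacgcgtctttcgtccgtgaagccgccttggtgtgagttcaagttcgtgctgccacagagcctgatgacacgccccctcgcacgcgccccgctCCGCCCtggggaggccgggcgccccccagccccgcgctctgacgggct
Efemp2, chr19:5473696-5473945, plus strand: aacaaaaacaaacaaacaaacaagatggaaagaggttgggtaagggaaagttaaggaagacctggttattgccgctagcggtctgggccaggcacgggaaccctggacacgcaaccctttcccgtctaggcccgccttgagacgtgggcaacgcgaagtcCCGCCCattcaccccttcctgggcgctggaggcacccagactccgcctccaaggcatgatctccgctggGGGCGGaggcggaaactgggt
The Fbln1 window was 46.4% G and C with 7 CpG dinucleotides. The Fbln5 window was 65.2% G and C with 21 CpG, and the Efemp2 window 59.2% with 15 CpG. Over all 32851 promoter windows of that length the median was 52.4% G and C with 6 CpG. The CACGTG of Fbln1 began at position -81 from the start, the 2 GC boxes of Fbln5 at -221 and -48, and those of Efemp2 at -90 and -21. Both strands were searched, and CACGTG was held by 6.02% of all windows and GGGCGG by 32.7%. TATAAA, held by 12.4% of all windows, and TGANTCA, the AP-1 motif, held by 6.75%, were not among the letters of these 3 windows.

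Injury changed the makeup of the elastic fibre transcripts in the mutants. In the wild type the shares of Fbln1 and Emilin1 in their summed level moved the same way. Among the mutants Emilin1, Fbn1 and Efemp2 rose, while Fbln1, Eln and Fbln5 fell. So 6 of the 9 genes passed there at an adjusted p under 0.05 by limma, a linear model fitted to log2(TPM + 1) over all genes. Of all 24188 genes tested, 30.8% passed in this comparison, 13.1% as higher and 17.7% as lower. In the wild type 0 of the 9 genes passed for injury by limma, against 0.116% of all genes, and 5 had an unadjusted p under 0.05, against 17.2% of all genes. The injury effect was called different between the genotypes for 0 of the 9 genes and for 0.0% of all genes. The median log2 change of the 9 genes for injury was 1.20 in the wild type, with 0.01 over all genes tested. In the mutants it was 0.24, with -0.08 over all genes. The wild-type median is the change of Fbn2 itself, which reached 1 TPM only in injured libraries and was tested only because of them. Without injured wild-type 3 the wild-type change of Fbn2 was 0.38, so the median is not read as a shift of the set. The mutant count was 4 without injured mutant 2 and 7 without injured wild-type 3, the 2 libraries that stood apart from their groups in several of these genes. Those fits called 27.7% and 33.3% of all genes. The mutant count was 3 without intact mutant 2, intact mutant 4 or injured mutant 1. Over all genes 5339, 5765 and 6126 were called in these fits, against 7438 with every library.

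**Figure D1:**
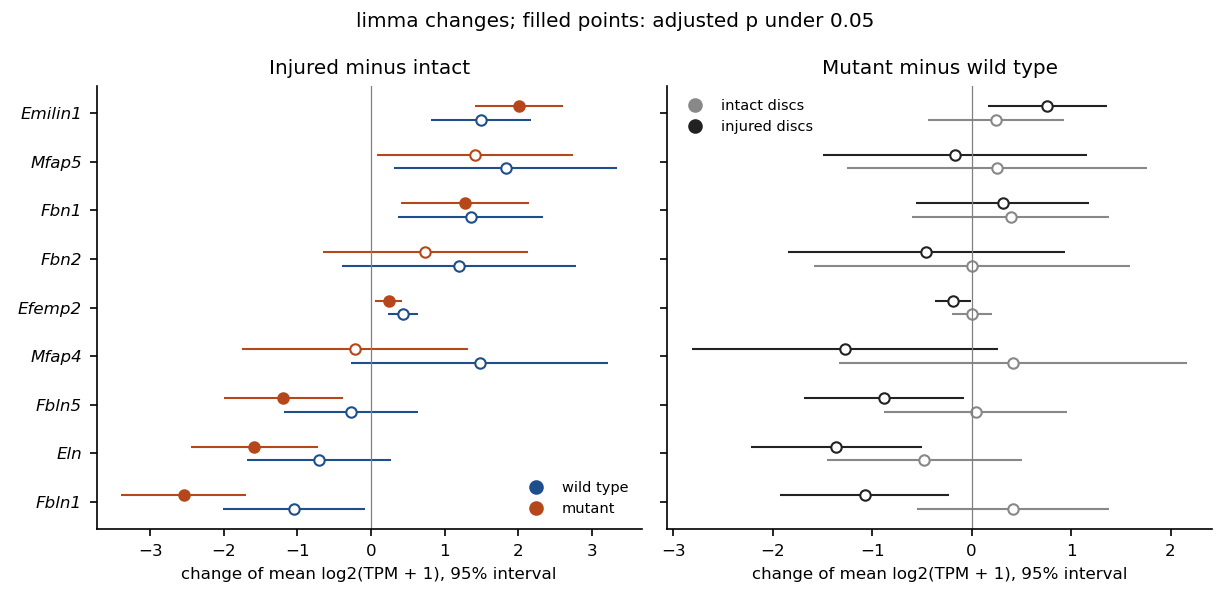
limma log2 changes of the 9 genes with 95% intervals, for injured minus intact discs in each genotype (left) and for mutant minus wild type in each disc state (right). Filled points have an adjusted p under 0.05, and these are 6 genes in injured mutants and no gene in the other comparisons.

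In intact discs the levels spanned from Fbln1, at 166 ± 49.9 TPM in the wild type (mean ± SD, n = 3) and 219 ± 42.2 TPM in the mutants (n = 4), down to Fbn2 at under 0.2 TPM in every library. Fbln1 and Efemp2 held the first and next place in both genotypes, and their ranges did not overlap in either. In the intact wild type Fbn1, Eln and Emilin1 followed, and neighbours among these overlapped. Fbln5 came next at 7.90 ± 2.11 TPM, then Mfap5 and Mfap4 at 2.00 ± 1.27 and 1.03 ± 0.616 TPM, which overlapped each other. After injury Fbn1 had the highest mean in both genotypes. In the injured mutants Fbn1, Emilin1 and Efemp2 lay at the top with overlapping ranges, and Fbln1 came next with all 5 libraries above Mfap5.

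**Figure D2:**
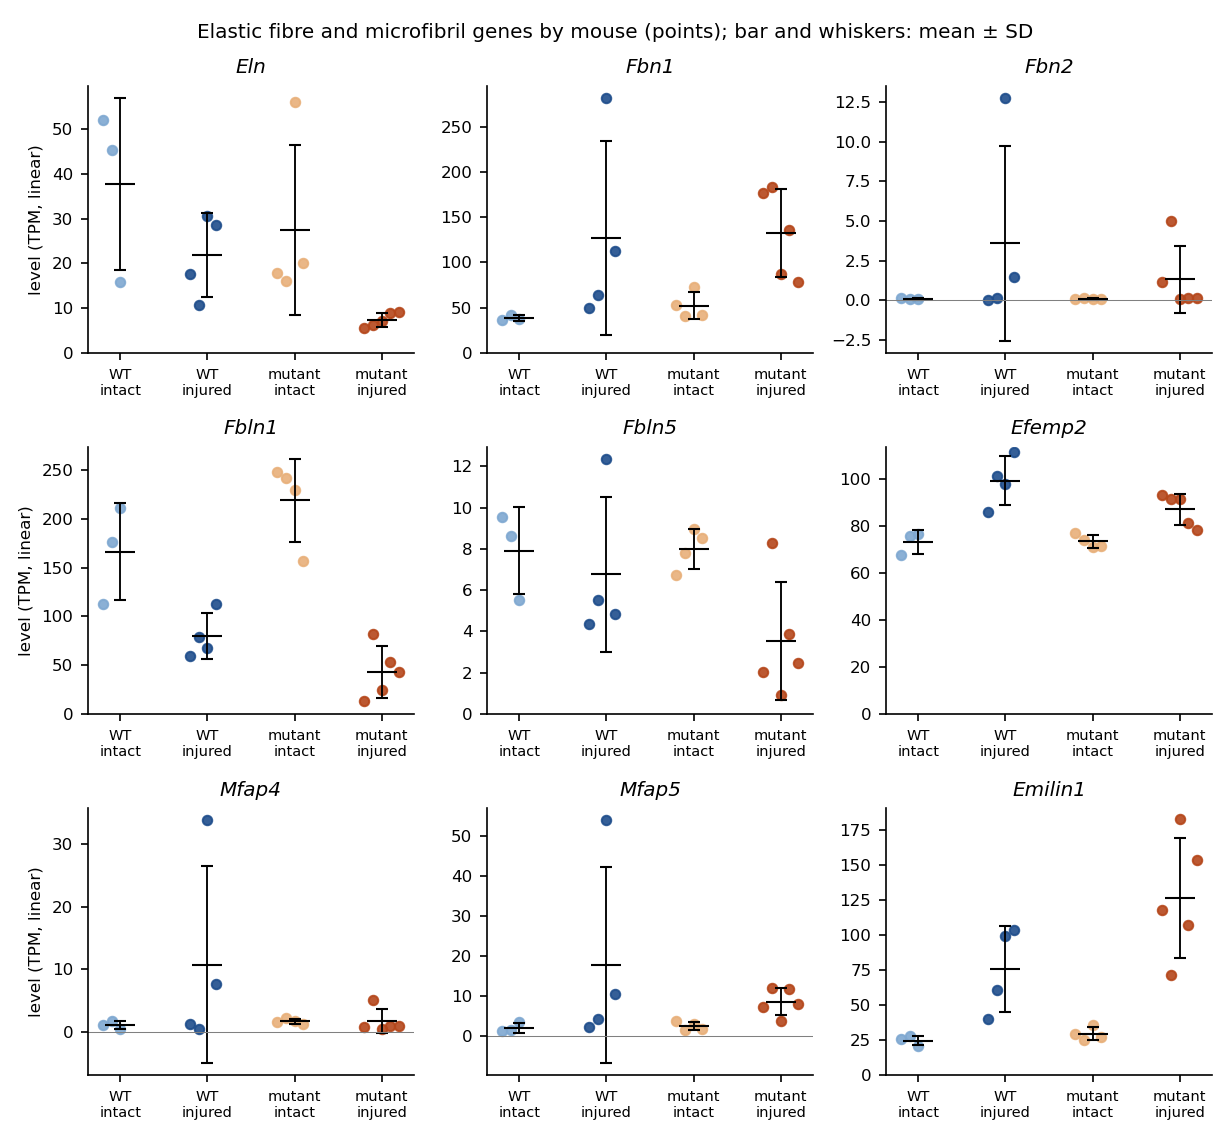
Level of each of the 9 genes in TPM on a linear axis, 1 point per mouse, with the mean (bar) and SD (whiskers, which pass below 0 where 1 mouse is far above the rest) of each group. The 5 injured mutants lie together at the bottom of the Eln panel, and 1 injured wild-type mouse is far above the others for Fbn1, Fbn2, Mfap4 and Mfap5.

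Elastin (Eln, ENSMUSG00000029675, GRCm38 chr5:134702593-134747323, minus strand) is the elastic core protein itself. Its level was 52.2, 45.4 and 15.9 TPM in intact wild-type mice 1 to 3, and 17.7, 10.8, 30.6 and 28.5 TPM in injured wild-type mice 1 to 4. In the mutants it was 17.9, 16.1, 56.0 and 20.01 TPM in intact mice 1 to 4, and 5.54, 6.21, 7.14, 9.002 and 9.17 TPM in injured mice 1 to 5. Every injured mutant was below every other library of the series, while the intact and injured wild-type mice overlapped. In the mutants Eln fell by 1.59 on the log2 scale (SE 0.404, 95% interval -2.45 to -0.73, limma adjusted p = 0.00950). The wild-type change was -0.70 (interval -1.68 to 0.28, limma adjusted p = 0.434). Intact mice were themselves uneven, with intact wild-type 1 and 2 and intact mutant 3 at least as high as 45.4 TPM and the other 4 at 20.01 TPM or below. Eln remained called in each of the 16 fits that left out 1 library. Eln shares 267 exon bases, 3.3% of its length, with Gm30003 on the other strand, which averaged 0.387 TPM, and without strand information the reads of such pairs cannot be told apart.

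The fibrillins form the microfibril. Fibrillin-1 (Fbn1, ENSMUSG00000027204, chr2:125300594-125507993, minus strand) is the main form in adult tissue. It was at 36.3, 41.9 and 37.9 TPM in intact wild-type mice and at 49.6, 63.5, 282 and 113 TPM in injured ones. In the mutants it was at 53.0, 41.3, 72.9 and 42.4 TPM in intact mice and at 176, 184, 87.2, 136 and 78.8 TPM in injured ones. All injured libraries were above all intact ones of their genotype. Fbn1 rose in the mutants by a log2 change of 1.27 (SE 0.407, interval 0.41 to 2.14, limma adjusted p = 0.0283), and the wild-type change was 1.35 (interval 0.36 to 2.34, limma adjusted p = 0.189). The mutant call rested on small margins. The limma adjusted p was 0.0550, 0.0769 and 0.0726 without intact mutant 1, 2 and 4, and 0.0645 and 0.0620 without injured mutant 1 and 2. Gm9913, a gene on the other strand that shares 20.14% of the Fbn1 exon bases, averaged 0.812 TPM.

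Fibrillin-2 (Fbn2, ENSMUSG00000024598, chr18:58008623-58210487, minus strand) is the form known best from developing tissue. It was nearly absent from intact discs, at 0.130, 0.0600 and 0.0740 TPM in the wild type and 0.0772, 0.150, 0.0846 and 0.0591 TPM in the mutants, values that correspond to 2.5 to 6.3 implied reads per library. Among injured wild-type mice it was listed at 0 in mouse 1, and was at 0.141, 12.7 and 1.47 TPM in mice 2 to 4. Injured mutants had 1.17, 4.97, 0.117, 0.170 and 0.179 TPM. So 4 of 9 injured mice, 2 of each genotype, stood above 1 TPM, and no intact mouse did. As a group the injured mice overlapped the intact ones, and the changes of 1.20 (interval -0.39 to 2.79, limma adjusted p = 0.411) in the wild type and 0.74 (interval -0.66 to 2.13, limma adjusted p = 0.422) in the mutants did not pass.

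Fibulin-1 (Fbln1, ENSMUSG00000006369, chr15:85205949-85286535, plus strand) is a calcium-binding glycoprotein of elastic fibres and basement membranes, and the gene with the CACGTG window printed above. It was at 112, 176 and 211 TPM in intact wild-type mice and at 59.4, 78.8, 67.1 and 113 TPM in injured ones. In the mutants intact mice had 248, 242, 229 and 157 TPM and injured mice 13.2, 82.0, 24.3, 52.8 and 43.1 TPM. The mutant groups were well apart, with the lowest intact mouse above the highest injured one, whereas injured wild-type 4 and intact wild-type 1 were nearly equal. Fbln1 fell in the mutants by 2.54 on the log2 scale (SE 0.398, interval -3.39 to -1.69, limma adjusted p = 0.000829). That is the largest change among the 9 genes in either genotype. The wild-type change was -1.05 (interval -2.02 to -0.08, limma adjusted p = 0.261). Every alternative fit and every fit with 1 library left out kept the mutant call for Fbln1.

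The short fibulins bind tropoelastin and lysyl oxidases and are needed for elastic fibre assembly. Fibulin-5 (Fbln5, ENSMUSG00000021186, chr12:101746565-101819055, minus strand) was at 9.55, 8.63 and 5.52 TPM in intact and at 4.34, 5.53, 12.4 and 4.84 TPM in injured wild-type mice. Intact mutants had 6.73, 7.82, 8.97 and 8.50 TPM and injured mutants 2.04, 8.28, 0.945, 3.88 and 2.47 TPM. Injured mutant 2 lay within the intact range and the other 4 injured mutants below it. Fbln5 fell in the mutants by 1.19 on the log2 scale (SE 0.377, interval -1.998 to -0.39, limma adjusted p = 0.0274). The wild-type change was -0.27 (interval -1.19 to 0.65, limma adjusted p = 0.769). Without intact mutants 2, 3 and 4 in turn the limma adjusted p for Fbln5 was 0.0582, 0.0595 and 0.0617, and without injured mutants 1 and 3 it was 0.0598 and 0.0631.

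Fibulin-4 (Efemp2, ENSMUSG00000024909, chr19:5473954-5482517, plus strand) is the close relative of fibulin-5 and brings lysyl oxidase to elastin. Its levels were 67.4, 75.5 and 76.6 TPM in intact and 86.1, 101, 97.9 and 111 TPM in injured wild-type mice. Intact mutants had 77.0, 73.9, 71.0 and 71.6 TPM and injured mutants 92.9, 91.2, 91.2, 81.1 and 78.4 TPM. In both genotypes all injured libraries were above all intact ones, by a small step. Efemp2 rose in the mutants by a log2 change of 0.24 (SE 0.0840, interval 0.06 to 0.42, limma adjusted p = 0.0422), and the wild-type change was 0.43 (interval 0.23 to 0.63, limma adjusted p = 0.102). The mutant call is close to the threshold: the adjusted p of limma was 0.0506 with no filter on low values and 0.0622 after quantile normalization. It was 0.0503 without intact wild-type 2, 0.0558, 0.0805, 0.0900 and 0.0946 without intact mutants 1 to 4, and 0.0863, 0.0780 and 0.0867 without injured mutants 1 to 3. The wild-type change passed once injured wild-type 1 was left out (limma adjusted p = 0.0300). Efemp2 shares 173 exon bases, 4.57% of its length, with Mus81 on the other strand, which averaged 32.4 TPM.

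The microfibril-associated proteins Mfap4 and Mfap5 were low in most libraries. Mfap4 (ENSMUSG00000042436, chr11:61485431-61488900, plus strand) encodes a fibrinogen-domain protein found on elastic fibres. It was at 1.06, 1.64 and 0.404 TPM in intact and at 1.17, 0.385, 33.9 and 7.56 TPM in injured wild-type mice. Intact mutants had 1.47, 2.13, 1.69 and 1.29 TPM and injured mutants 0.718, 5.05, 0.478, 0.929 and 0.979 TPM. Injured wild-type 3 and 4 and injured mutant 2 were high, the other injured libraries lay within or below the intact range, and the groups overlapped. Neither the wild-type change of 1.47 (interval -0.28 to 3.23, limma adjusted p = 0.360) nor the mutant change of -0.22 (interval -1.76 to 1.32, limma adjusted p = 0.846) passed. Mfap4 shares 89 exon bases, 4.63% of its length, with Mapk7 on the other strand, which averaged 27.4 TPM, so part of a low Mfap4 value cannot be told apart from Mapk7 reads.

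Mfap5 (ENSMUSG00000030116, chr6:122505845-122529290, plus strand) encodes MAGP-2, a small glycoprotein that binds fibrillin. It was at 1.14, 1.40 and 3.46 TPM in intact and at 2.14, 4.23, 53.9 and 10.5 TPM in injured wild-type mice. Intact mutants had 3.83, 1.49, 2.88 and 1.81 TPM and injured mutants 7.36, 11.9, 3.84, 11.7 and 7.95 TPM. All injured mutants were above all intact ones, the lowest (3.838 TPM) barely above the highest intact one (3.832 TPM), while injured wild-type 1 lay inside the intact range. The changes of 1.41 in the mutants (interval 0.08 to 2.74, limma adjusted p = 0.0988) and, for wild-type mice, 1.83 (interval 0.32 to 3.34, limma adjusted p = 0.229) did not pass. The mutant change passed without injured wild-type 3 (limma adjusted p = 0.0145) and in a fit of the mutant groups alone (limma adjusted p = 0.0111).

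Emilin1 (ENSMUSG00000029163, chr5:30913402-30921277, plus strand) encodes a glycoprotein at the border between elastin and microfibrils that also binds the TGF-beta precursor. It was at 25.4, 27.5 and 20.7 TPM in intact and at 40.1, 60.3, 99.5 and 103 TPM in injured wild-type mice. Intact mutants had 29.4, 24.9, 35.7 and 27.2 TPM and injured mutants 118, 71.7, 182, 107 and 154 TPM. In both genotypes every injured library was above every intact one. Emilin1 rose in the mutants by a log2 change of 2.01 (SE 0.281, interval 1.42 to 2.61, limma adjusted p = 0.000482), and this call was kept in all alternative fits. The wild-type change was 1.496 (interval 0.81 to 2.18, limma adjusted p = 0.0948), and it passed when injured wild-type 1, the lowest injured mouse, was left out (1.76, limma adjusted p = 0.0180).

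Groups without overlap give a second view of injury. In the wild type 3 of the 9 genes, Fbn1, Efemp2 and Emilin1, had all injured libraries above all intact ones, or 33.3%. Of all genes tested, 15.6% did not overlap there in either direction and 9.22% were higher. In the mutants 4 genes (Fbn1, Efemp2, Mfap5 and Emilin1) were higher and 2 genes (Eln and Fbln1) lower without overlap, or 66.7%. Of all genes, 27.2% did not overlap there, 12.0% being higher and 15.3% lower.

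Mice of 1 group differed among themselves in these genes. Across injured wild-type mice the median SD of the 9 genes was 0.66 in log2 units, where it was 0.35 over all genes tested, and across injured mutants 0.58, where it was 0.34 over all genes. Across intact wild-type mice it was 0.37, against 0.23 over all genes, and across intact mutants 0.21, against 0.25. Injured wild-type 3 was 2.83 above the intact mean on the log2 scale for Fbn1, 4.27 for Mfap5, 4.15 for Mfap4 and 3.66 for Fbn2. The same mouse was near the intact mean for Eln, at -0.13. Injured mutant 2 was the highest injured mutant for Fbn1, Fbn2, Fbln1, Fbln5, Mfap4 and Mfap5 and the lowest injured mutant for Emilin1. Without injured wild-type 3 the wild-type injury change was 0.86 for Fbn1, 1.02 for Mfap5, 0.58 for Mfap4 and 0.38 for Fbn2. Without injured mutant 2 the mutant change was 0.31 for Fbn2, -0.57 for Mfap4, -1.50 for Fbln5 and -2.83 for Fbln1.

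**Figure D3:**
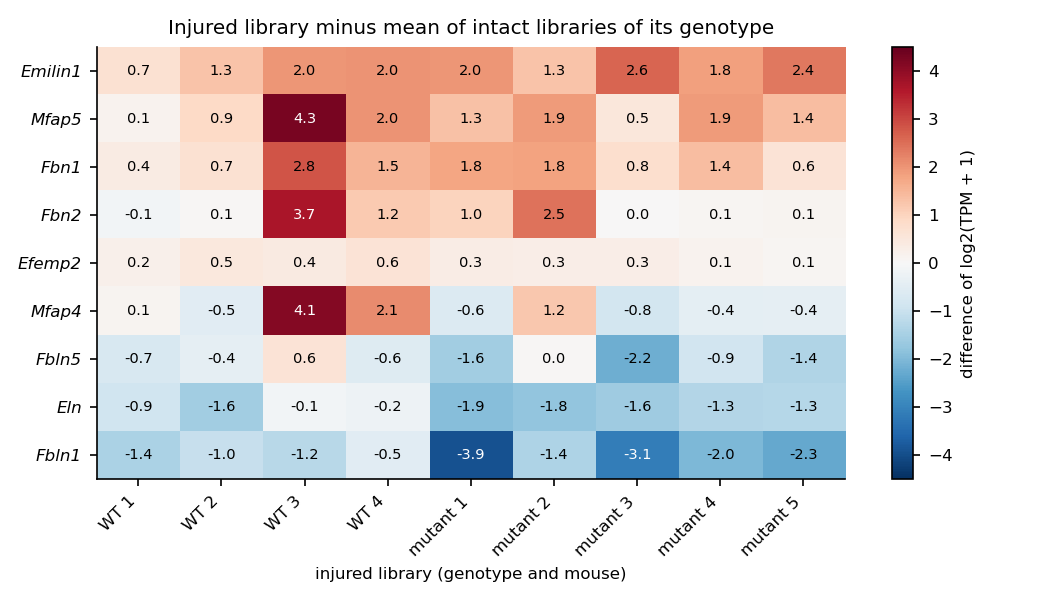
Difference of log2(TPM + 1) between each injured library and the mean of the intact libraries of its genotype, for the 9 genes (rows) and 9 injured mice (columns). Emilin1, Fbn1 and Efemp2 were above 0 in all 9 columns, Eln and Fbln1 below 0 in all 9, and injured wild-type 3 shows the darkest red cells, for Mfap5, Mfap4 and Fbn2.

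Markers of other cells moved with these libraries. Injured wild-type 3 had a summed level of 897 TPM for the 5 loose connective tissue fibroblast markers, where the other injured wild-type mice had 98.0 to 254 TPM and the intact wild-type mice 93.8 to 173 TPM. Its 6 outer annulus and tendon markers summed to 7762 TPM, against 1627 to 2945 TPM in the other injured wild-type mice. Col1a1 (6014 TPM), Col1a2 (1036 TPM) and Thbs4 (613 TPM) made up nearly all of that sum. Mkx, a tendon transcription factor, was instead lowest there, at 54.6 TPM against 128 to 165 TPM, while Scx (31.0 TPM) was close to the highest of the other 3 mice (30.5 TPM) and Tnmd (12.7 TPM) within their range. The 5 vascular smooth muscle markers summed to 542 TPM in that library, against 81.6 to 127 TPM, and the 5 endothelial markers to 173 TPM, against 6.22 to 57.5 TPM. Rgs5 (284 TPM) and Acta2 (227.5 TPM) made up nearly all of the smooth muscle sum. Tagln (8.94 TPM) and Cnn1 (2.42 TPM) were also above the other 3 mice, which had at most 4.10 and 2.22 TPM. Myh11 (19.2 TPM) lay within their range in that library, 11.5 to 20.2 TPM. The 7 cartilage and disc matrix markers were lowest there among the wild type, at 5233 TPM. In injured mutant 2 the fibroblast markers summed to 372 TPM, against 128 to 172 TPM in the other injured mutants, and the macrophage markers to 6836 TPM, against 629 to 2131 TPM. Most of that fibroblast excess was Lum, at 197.5 TPM against 18.8 to 56.1 TPM. Pi16 was also highest there, at 31.2 TPM against at most 9.85 TPM, and Pdgfra (84.5 TPM) was close to the next mouse (80.8 TPM). Dpt (21.8 TPM) and Clec3b (36.8 TPM) lay within the range of the other injured mutants. No marker of the fibroblast, tendon, smooth muscle or endothelial lists was at 0 throughout a group. In the mutants 3 of the 5 fibroblast markers rose with injury (Lum, Pi16 and Pdgfra) and 1 fell (Clec3b), and 3 of 5 tested markers of the nucleus pulposus fell. Over all genes tested 13.1% rose and 17.7% fell in the mutants. Of the 6 outer annulus and tendon markers 3 fell in the mutants, Tnmd by 2.03, Mkx by 1.27 and Scx by 0.57 on the log2 scale (limma adjusted p = 0.00780, 0.00360 and 0.0441). In the same list Thbs4 rose by 1.95 (limma adjusted p = 0.0128), and Col1a1 and Col1a2 did not pass. Of the 5 smooth muscle markers Myh11 fell by 1.90 on the log2 scale (limma adjusted p = 0.00125), and the other 4 (Acta2, Tagln, Cnn1 and Rgs5) did not pass. Within the tendon and smooth muscle lists some markers thus fell, as Eln, Fbln1 and Fbln5 did, while others rose or did not pass. The part of these cells in the levels of the elastic fibre genes was not tested.

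As a pool, the summed level of the 9 genes was 352 ± 39.9 TPM in intact wild-type mice (mean ± SD, n = 3) and 442 ± 192 TPM in injured ones (n = 4), with 690 TPM in injured wild-type 3. It was 414 ± 62.9 TPM in intact mutants (n = 4) and 411 ± 33.6 TPM in injured mutants (n = 5). The sums of intact and injured mutants overlapped, while their makeup differed. Fbln1 made up 52.8% ± 5.92 of the pool in intact mutants and 10.3% ± 5.74 in injured ones, and Eln 6.45% ± 3.63 and 1.83% ± 0.511. Emilin1 made up 7.13% ± 0.941 and 31.4% ± 12.1, and Fbn1 12.6% ± 2.12 and 31.7% ± 9.84. Efemp2 was at 18.1% ± 2.84 and 21.2% ± 1.41. In the wild type the Fbln1 share was 46.7% ± 9.99 in intact and 19.9% ± 6.82 in injured mice, and the Emilin1 share 7.06% ± 1.38 and 17.3% ± 2.97.

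**Figure D4:**
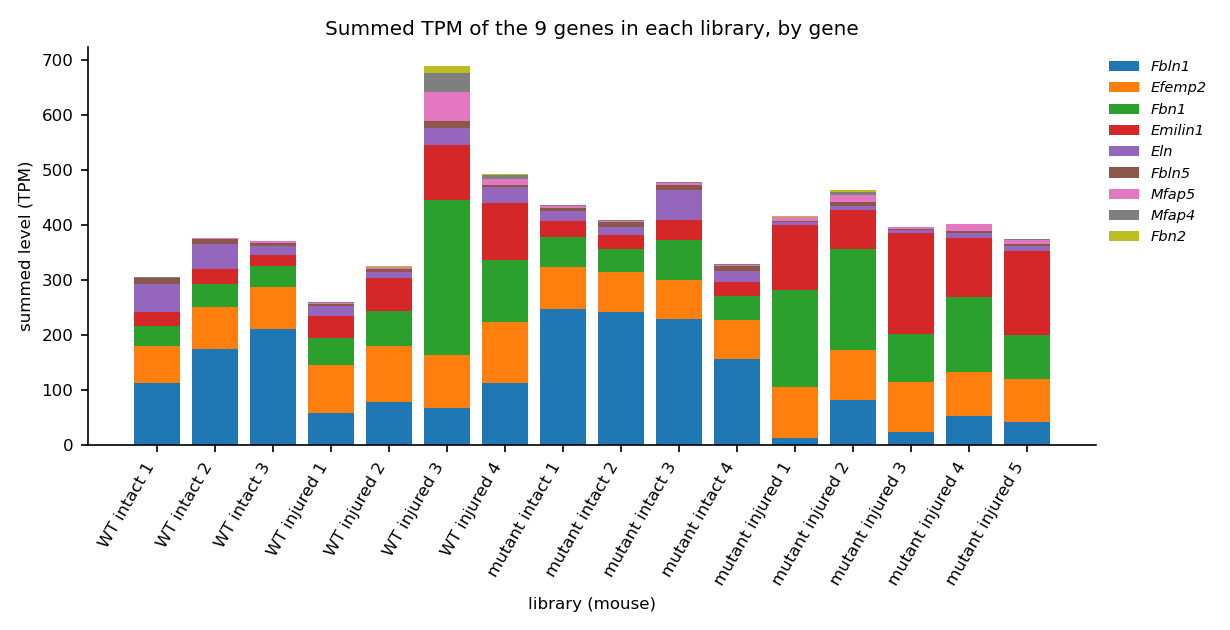
Summed level of the 9 genes in TPM in each of the 16 libraries, split by gene (colours). Fbln1 is the largest block in every intact library and Fbn1 or Emilin1 in every injured mutant, while injured wild-type 3 has the tallest bar.

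The ratio of Fbn1 to Eln, the scaffold against the core, was 0.697, 0.924 and 2.38 in intact and 2.80, 5.89, 9.21 and 3.97 in injured wild-type mice. It was 2.96, 2.56, 1.30 and 2.12 in intact mutants and 31.8, 29.6, 12.2, 15.1 and 8.59 in injured mutants. Every injured library thus had a higher ratio than every intact library of its genotype. Injured mutant 5 and injured wild-type 3 overlapped, so the injured genotypes were not fully apart.

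Between genotypes no gene of the 9 passed in intact discs by limma, where 0.0165% of all genes did, and 0 had an unadjusted p under 0.05. The intact changes ran from -0.47 for Eln to 0.42 for Fbln1, the limma intervals of all 9 held 0, and each gene's 2 groups overlapped, where 6.18% of all genes did not. In injured discs 0 of the 9 passed by limma, against 0.918% of all genes, although 5 had an unadjusted p under 0.05, against 20.3% of all genes. Eln was lower in the injured mutants (7.41 ± 1.63 TPM, n = 5) than in the injured wild type (21.9 ± 9.31 TPM, n = 4), with no overlap, a log2 change of -1.36 (interval -2.22 to -0.50) and a limma adjusted p of 0.0961. It was the 1 gene of 9 without overlap there, 11.1% of the 9, where 4.77% of all genes did not overlap and 3.86% were lower. Fbln1 had a change of -1.07 (interval -1.92 to -0.22, limma adjusted p = 0.155), Fbln5 of -0.88 (limma adjusted p = 0.209), Efemp2 of -0.19 (limma adjusted p = 0.232) and Emilin1 of 0.76 (interval 0.16 to 1.36, limma adjusted p = 0.153). None of these differences is shown at this number of mice. As the background strain of the mutants is not given, strain and mutation cannot be told apart in comparisons between the genotypes.

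The difference of the injury effect between mutant and wild type was tested as an interaction. By limma 0 of the 9 genes passed, with 0.0% of all genes called and 8.18% of them at an unadjusted p under 0.05. Among the 9, 1 gene, Fbln1, had an unadjusted p under 0.05, with a difference of -1.49 (interval -2.78 to -0.20, limma adjusted p = 0.555). Eln had -0.89 (interval -2.19 to 0.42, limma adjusted p = 0.740), Fbln5 -0.92 (interval -2.14 to 0.30, limma adjusted p = 0.696) and Emilin1 0.52 (interval -0.39 to 1.43, limma adjusted p = 0.779). The fall of Fbln1, Eln and Fbln5 in the mutants was therefore not shown to differ from the wild-type change.

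Mutant libraries carry names that begin with A8 or with M in the labels, and all wild-type names begin with D. For the wild type, naming and genotype cannot be told apart. Within the A8 mice (2 injured, 2 intact) the injury change was -2.84 for Fbln1, -1.39 for Eln, 1.73 for Emilin1, 1.92 for Fbn1, 0.28 for Efemp2 and -0.64 for Fbln5. Within the M mice (3 injured, 2 intact) it was -2.28, -1.88, 2.18, 0.80, 0.22 and -1.60 in the same order. The 6 called genes kept their direction in both, while Mfap4 was at 0.21 in the A8 mice and -0.48 in the M mice. By limma on either subset 2 genes, Fbln1 and Emilin1, passed, of 9 tested in the A8 and 8 in the M mice. Over all genes 15.6% passed in the A8 and 3.16% in the M mice.

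Related genes of the elastic fibre pathway were read from 4 further lists. Of 14 tested other components, 3 rose and 7 fell with injury in the mutants, where 13.1% of all genes tested rose and 17.7% fell. Emilin2, a relative of Emilin1, rose from 3.45 ± 1.56 TPM in intact mutants (n = 4) to 100 ± 97.5 TPM in injured ones (n = 5), a log2 change of 4.12 (SE 0.760, limma adjusted p = 0.00183). Fbln7, another fibulin, fell from 104 ± 14.5 to 24.2 ± 10.6 TPM (-2.12, limma adjusted p = 0.000233). The latent TGF-beta binding proteins split: Ltbp2 rose by 2.32 on the log2 scale and Ltbp4, which assists fibulin-5 in elastin assembly, fell by 1.76 on it. The median of that list was -0.37, with -0.08 over all genes.

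Of 13 genes of assembly and cross-linking, 6 rose and 3 fell in the mutants, with a median change of -0.20. Over all genes tested 13.1% rose and 17.7% fell there. Loxl1, the lysyl oxidase relative tied to elastin, rose by a log2 change of 2.32, from 4.12 ± 0.906 to 27.8 ± 14.3 TPM. Lox rose by 1.05, from 289 ± 78.1 to 607 ± 179 TPM. Adamtsl2 and Adamts17, which act on fibrillin microfibrils, fell by 1.88 and 1.29 on the log2 scale. Both were low: Adamtsl2 went from 4.98 ± 3.07 to 0.524 ± 0.361 TPM and Adamts17 from 2.75 ± 0.971 to 0.501 ± 0.160 TPM. Elastin transcript thus fell in the same comparison in which Lox and Loxl1, whose enzymes cross-link its product, rose.

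Of 10 elastin-degrading proteases 7 were tested, and 4 rose with injury in the mutants and 0 fell, with a median change of 0.97. Over all genes tested 13.1% rose and 17.7% fell in this comparison. Mmp12 and Mmp9 reached at most 0.28 and 0.334 TPM in intact libraries and were tested only because of injured ones. The count and the median are therefore not read as a shift of the list. Ctss, cathepsin S, rose from 11.3 ± 8.58 to 576 ± 447 TPM, and Mmp12, the macrophage elastase, from 0.166 ± 0.131 to 45.8 ± 52.5 TPM. Both are made by macrophages, whose summed markers are given above, and the part of those cells in the change was not tested. Ctsk rose by 0.97 and Ctsl by 0.95 on the log2 scale. Of 6 genes of the elastin receptor complex and elastin-binding integrin chains, 2 rose (Itgav by 0.49, Neu1 by 0.44). In that list 1 fell (Itgb5 by 0.60 on the log2 scale), and the median was 0.24, against the same shares of all genes. By limma 0 of the 40 tested genes of the 4 lists passed in the other 4 comparisons. At an unadjusted p under 0.05 there were 12 for injury in the wild type (against 17.2% of all genes), 1 between intact genotypes (against 3.78% of all genes), 15 between injured genotypes (against 20.3% of all genes) and 7 for the difference of injury effects (against 8.18% of all genes). For injury in the mutants there were 30 (against 42.0% of all genes). For injury in the wild type, Emilin2 stood at 2.77, Ltbp2 at 2.13 and Fbln7 at -1.15 (limma adjusted p = 0.164, 0.0721 and 0.113), each with groups that did not overlap. Without injured wild-type 1, where 1.93% of all genes were called, Ltbp2, Emilin2, Lox and Ctss passed for wild-type injury (limma adjusted p = 0.0164, 0.0454, 0.0390 and 0.0163), and Ltbp2 also without injured wild-type 3 (limma adjusted p = 0.0337).

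The 2 libraries that stood apart also bore on the list genes between injured genotypes. Without injured wild-type 3, 8 of the list genes passed by limma, in a fit that called 9.5% of all genes: Ltbp2 was higher in the injured mutants by 1.41, Loxl4 by 0.89 and Ctsk by 0.78 on the log2 scale, and Fbln7, Emilin3, Ltbp4, Ltbp1 and Elane were lower, with changes from -1.16 to -0.92. Elane was barely detected, at 0 TPM in all injured mutants and at most 1.61 TPM in injured wild-type mice. Without injured mutant 2, where 2.82% of all genes were called and 1.74% as lower, 5 passed, all lower in the mutants: Fbln7 (-1.05), Emilin3 (-1.25), Ltbp4 (-1.20), Mfap2 (-2.11) and Efemp1 (-1.45). Without injured mutant 4, where 2.65% of all genes were called, 2 passed, Ltbp4 (-1.26) and Ltbp1 (-1.14). In none of these fits did any of the 9 elastic fibre genes pass between injured genotypes. The list genes that passed with a library left out are named here after their values were seen. Within the A8 mice 6 of the 14 other components and 2 of the 13 assembly genes were called for injury, where 15.6% of all genes were. Within the M mice 3 and 1 were called, with 0 proteases and 0 receptor genes, where 3.16% of all genes were.

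**Figure D5:**
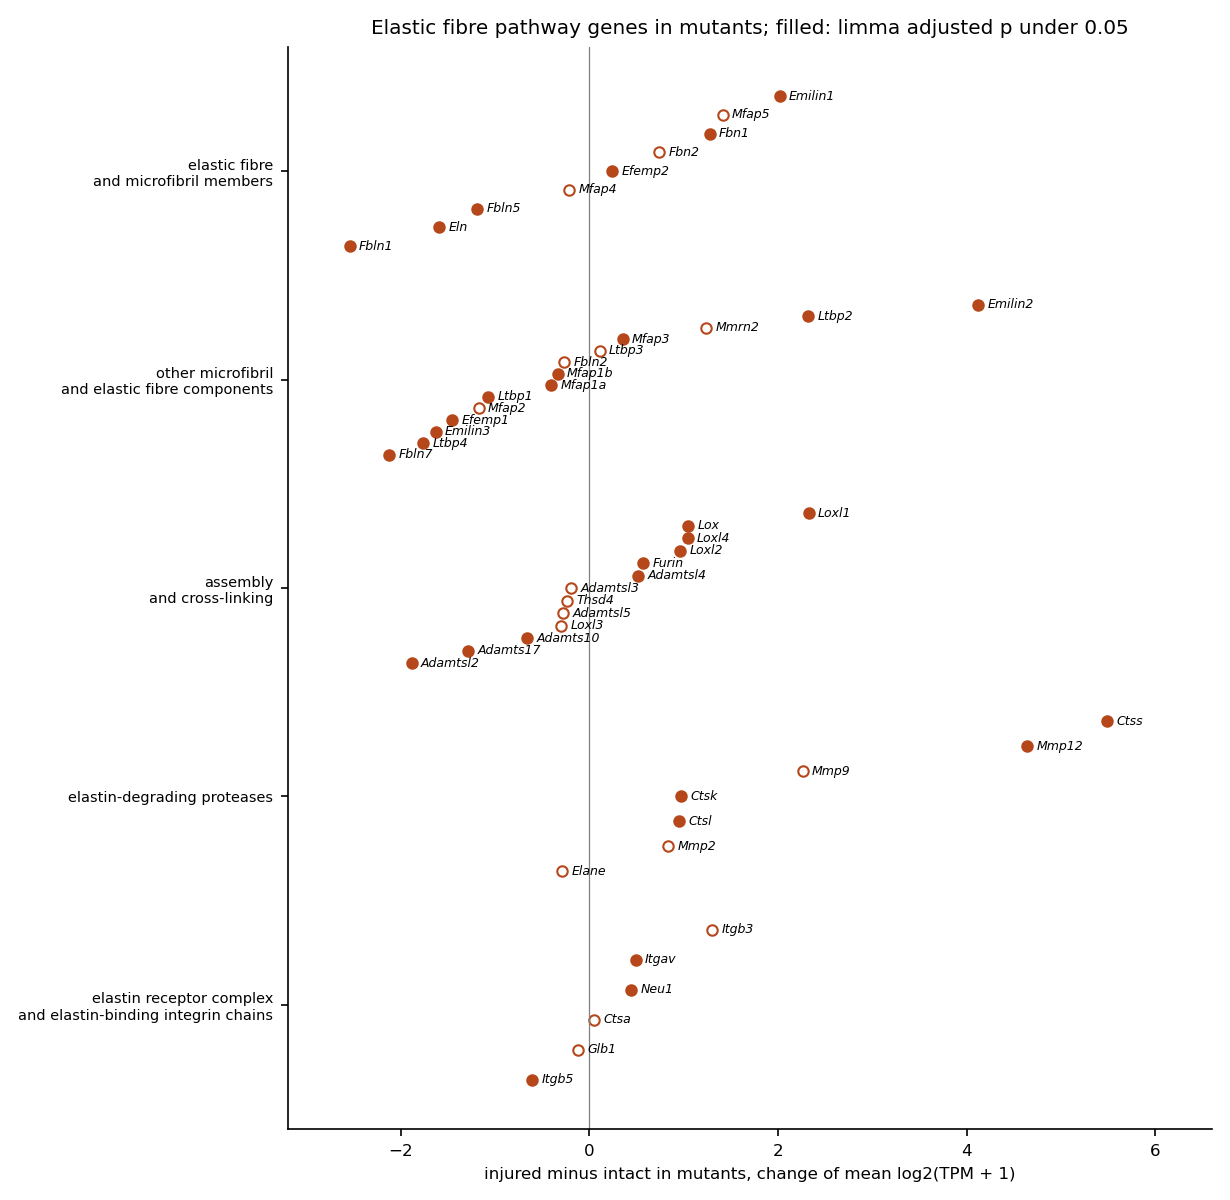
log2 change with injury in the mutants for the 9 genes and for related genes of 4 lists, 1 point per gene. Filled points passed at an adjusted p under 0.05 by limma, and the points farthest right are Ctss, Mmp12 and Emilin2 and farthest left Fbln1.

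The genes most like each of the 9 across all 16 libraries were named by the root mean square difference of centred log2(TPM + 1) among 11964 genes that averaged 5 TPM or more. Emilin1 was nearest to Col6a3, a collagen VI chain (0.24), then Chsy1 and Mamld1. Fbn1 was nearest to Tagln2 (0.26), Nsg1 and Samhd1. Fbln1 was nearest to Wfikkn2 (0.38), with Fbln7 next (0.39) and then Agt. The genes nearest to Eln were Lbh (0.52), Wisp2 (0.57) and Pgm5 (0.58).

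Efemp2 was at 0.10 from Copa and Erlin2 and at 0.11 from Cog6. It varied least of the 9 genes, by a root mean square of 0.20 about its own mean on the log2 scale, where the others varied by 0.73 to 1.18. Fbln5 was nearest to Scarf2 (0.27), then Adamts2, which trims procollagen, and Adamts12. Mfap5 was nearest to Cd34 (0.41), Igf1 and Tmem119. Fbn2 was nearest to Ly6e (0.41) and Mfap4 to Myl9 (0.53), and both had Col4a1, a basement membrane collagen, among their 3 nearest genes. Among the 9 genes themselves the closest pairs were Fbn1 with Mfap5 (0.53) and Fbn2 with Mfap4 (0.56). These distances are descriptions over libraries that share the mice in which Fbn2, Mfap4 and Mfap5 were high.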

How the data were processed

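The deposited data are a single TPM table, 1 column for each mouse. Per the labels' protocols, RNA was Trizol-extracted and depleted of ribosomal RNA with FastSelect before NEBNext Ultra II library preparation, although the molecule field reads polyA RNA. The submitters' processing notes name bcl2fastq 2.20 and GRCm38. How reads were aligned and counted, whether strand was used, and the annotation are not given in the sources used here. Groups came from the titles, since the genotype field of the wild type is cut short.

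Of the identifiers, 48970 (99.3%) were found in GENCODE M21 on GRCm38, which gave positions and exon overlaps. Implied reads came from the TPM steps and exon lengths. They put 94.1% to 95% of low values, under 20 reads, within 0.05 of whole numbers. They are approximations and gave no intervals, and errors are between mice.

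limma 3.58.1 in R 4.3.3 (lmFit, eBayes with a mean-variance trend) was fitted to log2(TPM + 1), 1 mean per group over all 16 libraries, for genes that reached 1 TPM in 3 or more libraries. Changes are on that scale, which understates low genes. The 24188 genes tested were adjusted together by Benjamini-Hochberg, with a threshold of 0.05, and SE and 95% intervals are moderated. The scripts were tested on simulated data. The 9 genes and the lists were chosen with earlier results of these data known. All 9 genes are described. From each list at most the 4 largest called changes are named, with further genes only to say what a count holds, and 3 nearest genes are named for each of the 9. Promoters came from RefSeq.

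Alternatives were a pseudocount of 0.1, quantile normalization, median-of-ratios scaling, no filter or one at a mean of 5 TPM, only the groups compared, a replicate block, library naming as a covariate or subset, and leaving out each mouse. Same-numbered libraries are different mice, and their deviations correlated at -0.217 to 0.151 over 21 pairs, so the numbers do not pair them.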

Additional observations from a re-analysis of the deposited data

Results flagged for a closer look

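Of 27 sets of values, 1 gene in 1 group of 4 or 5 mice each, 6 held a mouse with a large gap to the next. The gap was larger than 95% of such groups would give by chance if their values were normally distributed. Under that condition the criterion flags about 1 in 20 groups. Gaps were taken on TPM, not on the log2 scale, and the sets share mice, so the 6 are not set against that rate. Injured wild-type 3 was that mouse for Fbn2 (12.7 TPM), Fbln5 (12.4 TPM) and Mfap5 (53.9 TPM). Injured mutant 2 was that mouse for Fbn2 (4.97 TPM) and Mfap4 (5.05 TPM). Intact mutant 3 was that mouse for Eln (56.0 TPM). No gene's injury effect was called different between the genotypes.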

How the results depend on the processing

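For injury in the mutants, Fbln1 and Emilin1 were called in all 26 alternatives, Eln in 24, Fbn1 in 19, Fbln5 in 18 and Efemp2 in 13. Leaving out 1 library gave 3 to 7 genes of the 9 called, and 5339 to 7970 over all genes. In each mutant subset, A8 or M, 2 were called, of 9 genes tested in A8 and 8 in M, with fewer mice. In the wild type leaving out 1 library gave 0 to 2. No gene of the 9 was called between genotypes, or for the difference of injury effects, in any alternative run. The mouse numbers do not pair the mice. With a replicate block the mutant count was 4, with Fbln5 at -1.15 (limma adjusted p = 0.0760) and Efemp2 at 0.28 (limma adjusted p = 0.0580), and the block changed no other call of the 9.

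Changes that no test called turned direction in some alternatives, and the cause was not tested. In the A8 subset these were Mfap4 for injury in the mutants (0.21), Fbln5 between intact genotypes (-0.078), Fbn2 (0.53) and Mfap5 (0.040) between injured genotypes, and Fbn1 (0.57) and Fbn2 (0.496) for the difference of injury effects. In the M subset they were Efemp2 between intact (-0.035) and Fbn1 between injured genotypes (-0.037). With naming as a covariate they were Fbn2 (-0.45), Fbln5 (-0.104) and Efemp2 (-0.052) between intact genotypes. After quantile normalization they were Efemp2 between intact (-0.0033) and Mfap5 between injured genotypes (0.014). For the difference of injury effects Fbn1 stood at 0.020 with median-of-ratios scaling and at 0.071 with the replicate block.

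With 1 library left out, the intact genotype change ran from -0.019 to 0.034 for Fbn2, from -0.17 to 0.18 for Fbln5 and from -0.052 to 0.039 for Efemp2. The injured genotype change ran from -0.021 to 0.81 for Fbn1, from -0.89 to 0.37 for Fbn2 and from -0.73 to 0.65 for Mfap5. The difference of injury effects ran from -0.41 to 0.41 for Fbn1, from -0.90 to 0.36 for Fbn2 and from -0.98 to 0.39 for Mfap5.

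Counts over all genes moved more. For wild-type injury 28 genes were called, with 64 at a pseudocount of 0.1, 11 with no filter, 17 with median-of-ratios scaling, 5 with only the groups compared, 5 with the replicate block and 2 to 463 without 1 library. For injury in the mutants 7438 were called, with 3649 in the A8 and 743 in the M subset. Between intact genotypes 4 were called, with 0 to 2 in the alternatives that moved the count and 1 to 7 without 1 library. Between injured genotypes 222 were called, with 86 with no filter, 93 after quantile normalization, 5 with only the groups compared, 11 with the block, 392 with naming as a covariate, 1 in the A8 subset and 7 to 2272 without 1 library. For the difference of injury effects 0 were called, with up to 15 without 1 library. Depth limits Fbn2 and Mfap4, which rest on few reads in most libraries and drop out of the test with a filter at a mean of 5 TPM. For injury in the mutants Fbn2 was tested in 23 of the 26 alternatives, as it also drops out of the M subset and of the fit of the mutant groups alone.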
